A study of Mus musculus with 8 samples.

Results

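The genes of the respiratory chain, nuclear and mitochondrial, were examined in mouse liver after treatment with isoginkgetin (ISOGK), a biflavonoid from *Ginkgo biloba*. The members were chosen by a rule on gene symbols, with earlier results of these data known. The rule takes every row of the count table starting with mt-, Nduf, Uqcr, Cox4 to Cox8 or Atp5, together with *Sdha*, *Sdhb*, *Sdhc*, *Sdhd* and *Cyc1*. This rule took 109 of 16540 genes, of which 96 are nuclear and 13 are encoded by mitochondrial DNA. All mice were male, carried the Apoe-/- genotype, a whole-body loss of apolipoprotein E that raises plasma cholesterol, and were fed a Western diet. Of these, 4 received vehicle and 4 received ISOGK at 20 mg/kg per day, both for 8 weeks, and the liver of each mouse gave 1 RNA-seq library. The ages of the mice are not given in the labels. Total counts ran from 17457106 to 24461854 per library.

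Electrons from NADH enter the chain at complex I, those from succinate at complex II, and both pass through ubiquinone, complex III and cytochrome c to complex IV, where oxygen is reduced. Complexes I, III and IV pump protons, and complex V, the ATP synthase, uses the gradient to make ATP. Complexes I, III, IV and V are built from subunits of both genomes, whereas complex II is wholly nuclear. In hepatocytes the chain also receives the electrons released by fatty acid oxidation. Among the nuclear members, 37 genes encode subunits of complex I, 4 of complex II, 9 of complex III, 18 of complex IV and 17 of complex V. *Ndufa4* is counted with complex IV, in which its protein resides despite the name. The remaining 11 nuclear members are 8 assembly factors of the Ndufaf series, the supercomplex factor *Cox7a2l*, and *Ndufa4l2* and *Ndufb11b*. The mitochondrial genome supplied 7 genes of complex I, 1 of complex III, 3 of complex IV and 2 of complex V. No ribosomal or transfer RNA of the mitochondrial genome was listed among the rows.

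The promoters of 4 members are printed because these genes had the smallest p-values of all members: *Ndufs4*, *Uqcrh* and *Uqcr10*, which passed the adjusted threshold, and *Atp5g3*, which came next to it. Each window runs 5′ to 3′ from 250 bases before to 50 after the RefSeq start of the gene in GRCm38.p6, all on the minus strand. They lie at chr13:114388045-114388344, chr4:116075021-116075320, chr11:4704295-4704594 and chr2:73911277-73911576 in the order printed, and capitals mark matches to the motifs named after them.
Ndufs4: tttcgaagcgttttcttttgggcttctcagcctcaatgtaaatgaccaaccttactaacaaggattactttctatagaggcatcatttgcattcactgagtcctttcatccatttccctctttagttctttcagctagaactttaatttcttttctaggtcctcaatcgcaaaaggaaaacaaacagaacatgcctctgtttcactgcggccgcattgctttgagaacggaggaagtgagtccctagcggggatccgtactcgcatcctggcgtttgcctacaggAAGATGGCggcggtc
Uqcrh: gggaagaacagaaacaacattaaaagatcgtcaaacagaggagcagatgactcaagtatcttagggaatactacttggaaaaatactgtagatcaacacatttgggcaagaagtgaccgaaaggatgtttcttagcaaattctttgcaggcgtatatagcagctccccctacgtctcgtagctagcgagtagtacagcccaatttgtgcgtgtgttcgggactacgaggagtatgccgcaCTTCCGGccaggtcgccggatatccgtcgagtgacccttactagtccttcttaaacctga
Uqcr10: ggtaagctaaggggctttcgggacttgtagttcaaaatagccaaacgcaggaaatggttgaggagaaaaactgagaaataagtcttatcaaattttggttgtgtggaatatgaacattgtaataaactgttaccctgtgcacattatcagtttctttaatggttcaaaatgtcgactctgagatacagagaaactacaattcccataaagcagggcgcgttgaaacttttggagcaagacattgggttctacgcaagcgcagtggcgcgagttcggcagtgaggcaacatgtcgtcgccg
Atp5g3: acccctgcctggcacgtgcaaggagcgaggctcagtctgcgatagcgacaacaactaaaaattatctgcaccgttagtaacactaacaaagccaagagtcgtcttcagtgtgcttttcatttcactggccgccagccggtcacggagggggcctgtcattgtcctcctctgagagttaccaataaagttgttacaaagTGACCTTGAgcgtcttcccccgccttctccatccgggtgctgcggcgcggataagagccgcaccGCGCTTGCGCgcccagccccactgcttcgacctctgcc

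Consensus motifs of 5 factors known for respiratory genes were searched without mismatch on both strands of the windows of 77 nuclear members and of 27025 genes. The latter are more than the 12307 genes that passed the filter on low counts. No share over those tested genes alone was computed. The NRF1 palindrome was found in 24.7% of the members and 5.19% of all genes. For the ETS factor GABPA the letters CCGGAAG were found in 24.7% and 9.93%, and for YY1 the letters AAGATGGC in 14.3% and 3.19%. The ESRRA letters TCAAGGTCA were present in 2 members, *Atp5g3* and *Sdhd*, which is 2.60% against 0.466% of all genes. The direct repeat bound by PPAR receptors was present in 0 members and in 13 of all genes (0.0481%). An exact repeat that rare could hardly appear among 77 windows, so its absence says little about PPAR sites. In the printed windows the *Ndufs4* capitals match YY1, the *Uqcrh* capitals match GABPA, the first and the second capitals of *Atp5g3* match ESRRA and NRF1, and *Uqcr10* holds none of them. A match of letters does not show that a factor binds there. The median log2 fold change (ISOGK minus vehicle) was 0.23 for members with the NRF1 palindrome and 0.21 for those without, and it was 0.22 and 0.23 for YY1, and 0.18 and 0.24 for GABPA.

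Nuclear subunit genes were on balance slightly higher in the ISOGK livers, while the mitochondrially encoded genes lay on both sides of no change. Of the 109 members, 101 passed the filter on low counts, 88 nuclear and all 13 mitochondrial. The median log2 fold change was 0.21 over the nuclear members, -0.01 over the mitochondrial members and 0.00 over the 12307 genes tested. A fold change above 0 was found for 76 of the 88 nuclear members and 6 of the 13 mitochondrial ones, where the share over all genes was 50.2%. With edgeR's quasi-likelihood test and Benjamini-Hochberg adjustment over all genes, 3 members rose at an adjusted p under 0.05 and 0 fell, against 4.11% of all genes called higher and 3.44% called lower. Thus the share of members called was below the background. At an unadjusted p under 0.05, 37 members were higher and 1 was lower, where 12.5% and 11.6% of all genes were. No member passed the adjusted threshold together with an absolute log2 fold change over 1, a rule that 1.63% of all genes met. The 4 ISOGK livers lay entirely above the 4 vehicle livers for 14 members and entirely below for 2, where 7.92% and 7.36% of all genes did so. All 16 of these were nuclear.

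**Figure D1:**
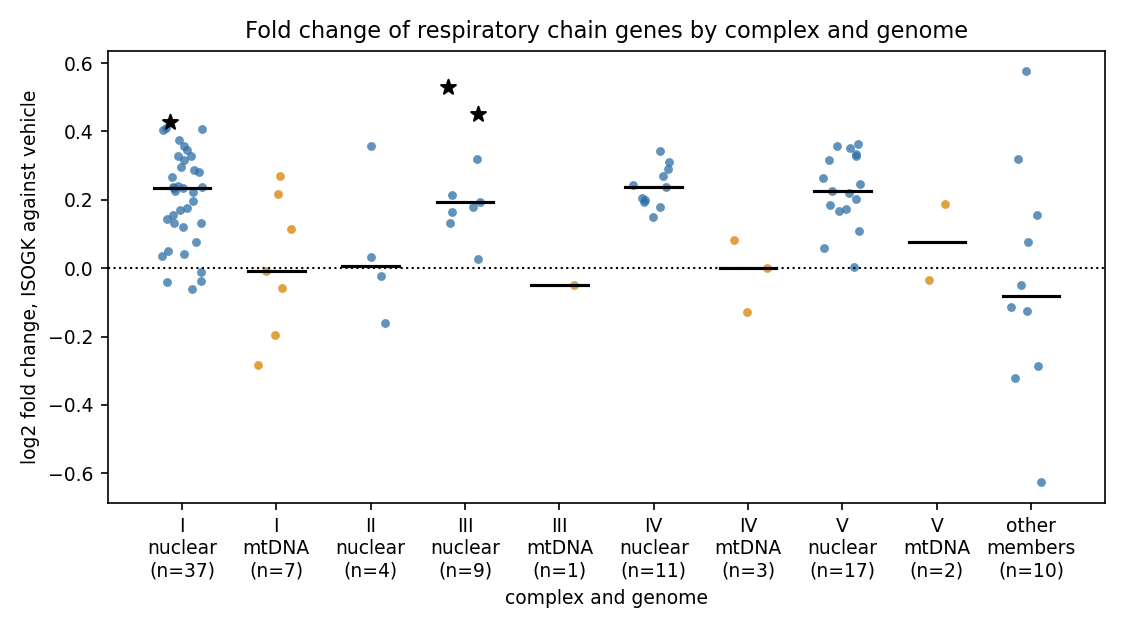
Log2 fold change (ISOGK minus vehicle, 4 mice each) of the tested respiratory chain genes by complex, with nuclear (blue) and mitochondrial (orange) genes apart, each point a gene, each bar a median and each star a member called at an adjusted p under 0.05. Nuclear genes of complexes I, III, IV and V have medians between 0.19 and 0.24, whereas complex II and the mitochondrial genes center near 0.

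The ISOGK mice were not alike in this. Relative to the vehicle mean, the median nuclear member was 0.43 higher on the log2 scale in ISOGK 4, 0.21 in ISOGK 2, 0.16 in ISOGK 1 and 0.01 in ISOGK 3. ISOGK 4 exceeded every vehicle mouse for 78 of the 88 nuclear members and ISOGK 3 for 22. The share of all genes for which they did so was not counted, so no background stands beside these counts. The composition factors of the TMM scaling (edgeR's trimmed mean of M-values) were 0.883 in ISOGK 4 and 1.01 in ISOGK 3, and 1.02 to 1.09 in the vehicle livers. Scaled by library size alone, the nuclear median was 0.08 against -0.13 for all genes. This scaling moves all genes by about the same amount, so the distance of 0.21 between the medians could hardly change. By complex, the nuclear medians were then 0.10 for I, -0.13 for II, 0.06 for III, 0.10 for IV and 0.09 for V. With an offset for transcript length and GC content in each library, added after seeing the data, they were 0.07, -0.04, 0.11, 0.04 and 0.09, where all genes had 0.02. Without ISOGK 4 the nuclear median was 0.14, and without ISOGK 3 it was 0.25.

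The calls fell on *Ndufs4*, *Uqcrh* and *Uqcr10*. *Ndufs4* encodes an accessory subunit of the complex I arm that oxidizes NADH. Its normalized CPM (read counts scaled to a common library size with the TMM factors) were 28.2, 32.1, 28.7 and 28.9 in vehicle and 37.0, 39.1, 35.2 and 47.6 in ISOGK livers. All ISOGK livers were above all vehicle livers, and the mean was 34.6% higher (log2 fold change 0.43, SE 0.11, adjusted p = 0.0329 by edgeR). *Uqcrh* encodes the hinge protein of complex III, and its CPM were 54.4, 59.4, 52.1 and 52.9 in vehicle against 67.7, 73.0, 65.5 and 92.8 in ISOGK livers. The groups did not overlap, with a log2 fold change of 0.45 (SE 0.11, adjusted p = 0.0359 by edgeR). *Uqcr10*, a small membrane subunit of complex III, had CPM of 23.2, 26.0, 22.6 and 25.4 in vehicle and 31.7, 36.2, 26.9 and 45.6 in ISOGK livers. Its log2 fold change was 0.53 (SE 0.14, adjusted p = 0.0434 by edgeR), and again the lowest ISOGK liver was above the highest vehicle liver. The number of calls changed with single mice: 0 members were called without any 1 of the 4 vehicle mice, without ISOGK 2 or without ISOGK 4, 3 without ISOGK 1 and 18 without ISOGK 3. With library size alone 0 members were called higher, and with the Wald test of DESeq2 7 were, the additions being *Atp5g3*, *Ndufa5*, *Ndufb3* and *Sdhd*.

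**Figure D2:**
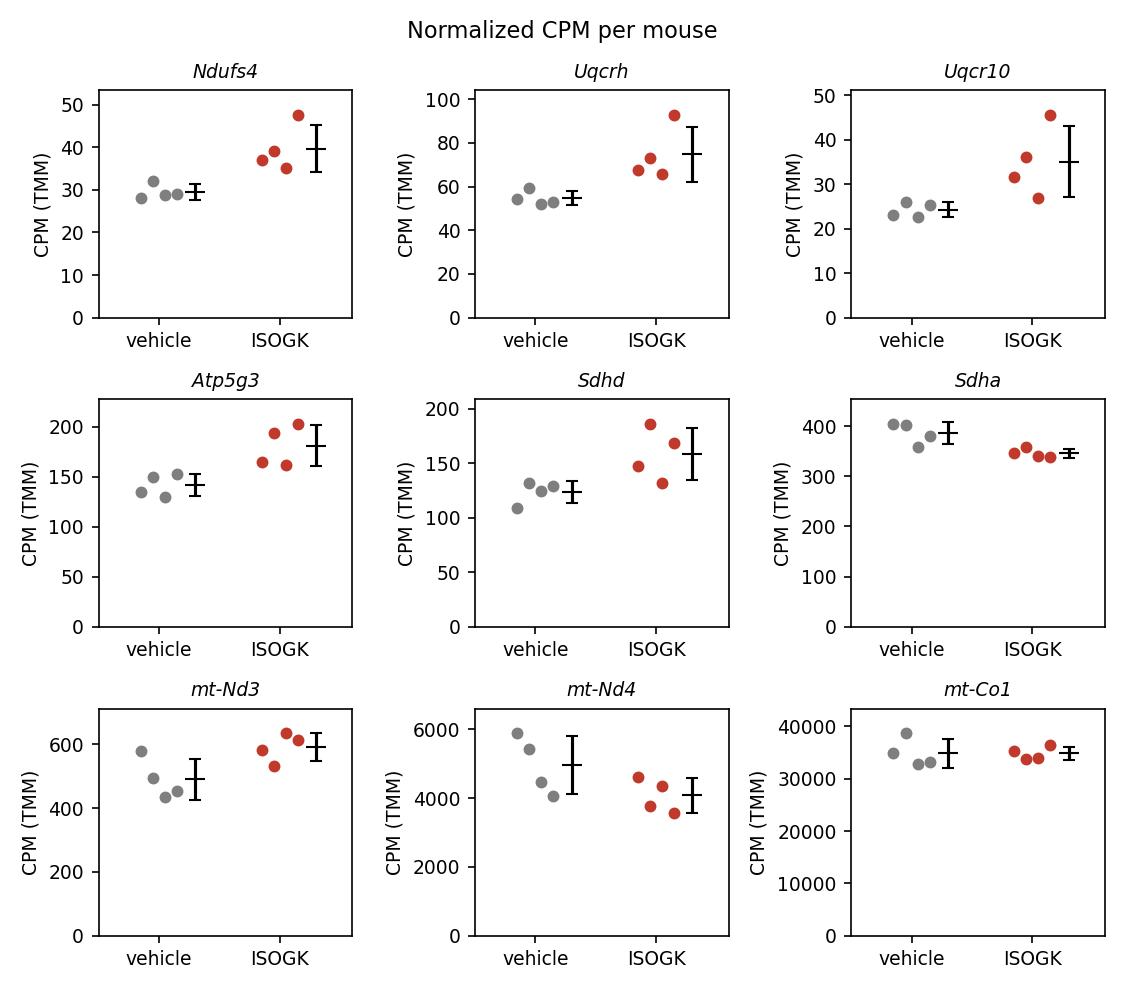
CPM (TMM-scaled, linear axis from 0) of 9 members in each of the 8 mice, with the mean and SD of each group as bars. The ISOGK points lie above all vehicle points for *Ndufs4*, *Uqcrh*, *Uqcr10* and *Atp5g3* and below them for *Sdha*, and the groups overlap for the others.

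In complex I, the entry point for NADH, all 37 nuclear subunit genes were tested, with a median log2 fold change of 0.23 and 33 above 0. *Ndufs4* alone passed the adjusted threshold. Counting it, 16 had an unadjusted p under 0.05 and 7 had groups that did not overlap, all higher, where 12.5% and 7.92% of all genes did. *Ndufb3*, an accessory subunit of the membrane arm, had 19.5, 20.97, 17.9 and 18.4 CPM in vehicle and 22.4, 22.4, 25.8 and 25.8 in ISOGK livers. Its difference was 0.33 on the log2 scale (SE 0.10, adjusted p = 0.0654 by edgeR). *Ndufa5*, an accessory subunit of the matrix arm, had 13.2, 12.3, 10.8 and 12.0 CPM in vehicle and 14.7, 16.4, 14.0 and 19.1 in ISOGK livers, a difference of 0.41 (SE 0.12, adjusted p = 0.068 by edgeR). Both were higher in every ISOGK liver than in any vehicle liver without passing the threshold. The 8 Ndufaf genes, whose products help to build complex I and are not part of it, had a median of -0.08, with 3 above 0. At the ends of this series were *Ndufaf2*, with 2.80 to 3.48 CPM in vehicle and 4.01 to 5.92 in ISOGK livers (log2 difference 0.58, SE 0.18, adjusted p = 0.0699 by edgeR), and *Ndufaf5*, which encodes an arginine hydroxylase acting on a complex I subunit, with 2.10 to 3.12 and 1.42 to 1.99 CPM (-0.63, SE 0.22, adjusted p = 0.103 by edgeR). The groups did not overlap for either gene. With library size alone *Ndufaf5* was the only member called lower, at -0.76 and an adjusted p of 0.0473 by edgeR.

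Complex II, which oxidizes succinate and also belongs to the tricarboxylic acid cycle, had no common direction among its 4 genes. *Sdha*, the flavoprotein that holds the active site, had 404, 403, 357.5 and 380 CPM in vehicle and 346, 357.3, 340 and 338 in ISOGK livers. Each ISOGK liver was below each vehicle liver, narrowly so for ISOGK 2 and vehicle 3, and the difference of -0.16 (SE 0.09) did not pass the test (adjusted p = 0.282 by edgeR). *Sdhd*, a membrane anchor, had 109, 131.7, 124 and 129 CPM in vehicle and 147, 186, 131.5 and 169 in ISOGK livers, a log2 difference of 0.36 (SE 0.12, adjusted p = 0.0845 by edgeR) with overlap of ISOGK 3 and vehicle 2. The iron-sulfur subunit *Sdhb* and the other anchor *Sdhc* differed by 0.03 (SE 0.14) and -0.02 (SE 0.11). The difference in fold change between *Sdha* and *Sdhd* was not tested.

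Complex III passes electrons from ubiquinol to cytochrome c. All 9 of its nuclear genes had a fold change above 0, with a median of 0.19. Apart from the 2 called genes only *Uqcrb* had an unadjusted p under 0.05, where 12.5% of all genes were higher at that p. *Uqcrb*, a small subunit of the matrix side, had 61.1, 59.3, 53.5 and 54.0 CPM in vehicle and 65.7, 56.95, 72.1 and 69.6 in ISOGK livers. Its groups overlapped, at a difference of 0.21 (SE 0.10, adjusted p = 0.203 by edgeR). The mitochondrial gene of this complex, *mt-Cytb*, differed by -0.05 (SE 0.11).

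Of the 18 nuclear genes of complex IV, 11 were tested and all 11 were above 0, with a median log2 fold change of 0.24. However, 0 passed the adjusted threshold by edgeR or DESeq2, and 6 were higher at an unadjusted p under 0.05 by edgeR (12.5% of all genes). *Cox7c*, a small membrane subunit, had 60.1, 74.1, 54.7 and 66.1 CPM in vehicle and 78.9, 68.6, 79.7 and 96.3 in ISOGK livers (log2 difference 0.34, SE 0.12, adjusted p = 0.113 by edgeR). *Cox7b* and the zinc-binding *Cox5b* differed by 0.27 (SE 0.11) and 0.29 (SE 0.12), with adjusted p-values of 0.143 and 0.152 by edgeR. The groups overlapped for these 3 genes. They did not overlap for 1 gene of the complex, *Cox5a*, where 7.92% of all genes lay entirely higher in ISOGK livers. *Cox5a*, a subunit of the matrix side, had 59.1 to 66.4 CPM in vehicle and 67.9 to 78.8 in ISOGK livers (0.21, SE 0.09, adjusted p = 0.175 by edgeR). Liver uses the ubiquitous isoforms of this complex, while striated muscle, testis and lung carry others. The ubiquitous forms were all measured: *Cox4i1* at 147 to 177 CPM in vehicle and 154 to 263 in ISOGK livers (0.31), *Cox6a1* at 115 to 136 and 112 to 176 (0.19), *Cox6b1* at 59.6 to 71.7 and 66.2 to 83.0 (0.20), *Cox7a2* at 37.7 to 43.8 and 37.7 to 58.7 (0.24), *Cox8a* at 129 to 162 and 144 to 182 (0.15), and *Ndufa4* at 108 to 121 and 117 to 156 (0.24). None of these passed the test, and all of their groups overlapped. *Cox7a2l*, whose product joins complexes III and IV, differed by 0.32 (SE 0.11, adjusted p = 0.101 by edgeR). *Ndufa4l2*, a paralog of *Ndufa4* known from hypoxia, was near the detection limit at 0.211 to 0.848 CPM over the 8 mice.

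The 8 members that did not pass the filter were *Ndufb11b* and the restricted isoforms *Cox4i2*, *Cox6a2*, *Cox6b2*, *Cox7a1*, *Cox7b2*, *Cox8b* and *Cox8c*. Their counts were between 0 and 13 per library. The highest, 13, was that of the striated muscle isoform *Cox6a2* in vehicle 4, where the other libraries had 0 to 3. The 16 muscle markers examined summed to 1968 counts in vehicle 4 and to 3 to 26 elsewhere, and 15 of them were highest in vehicle 4. *Cox7a1*, another muscle isoform, had 3 counts in vehicle 4 and 3 to 12 elsewhere, and *Cox8b* had 1 in vehicle 4 and 0 to 1 elsewhere. Whether muscle RNA in this library bears on other members was not tested beyond leaving the mouse out, after which 0 members were called. Leaving out vehicle 1, 2 or 3 instead also gave 0 calls, so the loss of the calls is not particular to vehicle 4.

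Complex V makes ATP from the proton gradient. All 17 nuclear genes were tested and had a fold change above 0, with a median of 0.23. None passed the adjusted threshold by edgeR (1, *Atp5g3*, by DESeq2), and 8 were higher at an unadjusted p under 0.05 by edgeR (12.5% of all genes). The ISOGK livers lay entirely above the vehicle livers for 3, *Atp5g3*, *Atp5j* and *Atp5mpl* (7.92% of all genes). *Atp5g3* is 1 of 3 genes that encode the same mature c subunit of the membrane rotor with different import sequences. It had 135, 150, 130 and 153 CPM in vehicle and 165, 194, 162 and 203 in ISOGK livers (log2 difference 0.35, SE 0.10, adjusted p = 0.0633 by edgeR). The same values for *Atp5g1* were 65.2, 73.4, 65.8 and 74.99 against 65.7, 74.9, 61.2 and 78.2, a difference of 0.00 (SE 0.10), and *Atp5g2* differed by 0.20 (SE 0.10). Thus the 3 genes for 1 mature protein spanned much of the range of the complex. The difference between them was not tested. *Atp5h*, of the peripheral stalk, had 86.4, 103, 89.3 and 86.6 CPM in vehicle and 106, 126, 99.5 and 139 in ISOGK livers (0.36, SE 0.12, adjusted p = 0.0807 by edgeR). *Atp5mpl*, a small proteolipid of the enzyme, had 19.1 to 23.0 and 23.6 to 31.2 CPM (0.34, SE 0.12, adjusted p = 0.101 by edgeR).

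Per length, each of the 13 mitochondrially encoded genes had more counts than any nuclear member. In RPKM (CPM divided by transcript length in kilobases) of vehicle livers, *mt-Co1*, the catalytic subunit of complex IV, stood at 22570, *mt-Co3* at 10487.9 and *mt-Co2* at 8372. The ATP synthase subunit *mt-Atp6* had 6364 RPKM and *mt-Cytb* 6237. Complex I genes were lower and uneven, from 4776 for *mt-Nd2* and 4636 for *mt-Nd1* through 3603 for *mt-Nd4*, 1716 for *mt-Nd5*, 1411 for *mt-Nd3* and 1017 for *mt-Nd6* to 622 for *mt-Nd4l*. *mt-Atp8* had 594 RPKM. Genes with overlapping ends were thus far apart, at 594 and 6364 for *mt-Atp8* and *mt-Atp6* and 622 and 3603 for *mt-Nd4l* and *mt-Nd4*. The cause was not tested, and RPKM of such short genes need not rank transcripts. The highest nuclear members were *Atp5b* and *Atp5a1*, the catalytic core of complex V, at 499 and 324, followed by *Cox8a* at 263 and *Ndufa4* at 252. Annotated genes of the mitochondrial genome overlap by 43 bases for *mt-Atp8* and *mt-Atp6*, 7 for *mt-Nd4l* and *mt-Nd4*, 14 for *mt-Nd5* and *mt-Nd6* on opposite strands, and 1 for *mt-Atp6* and *mt-Co3*, so reads there could not be assigned to 1 gene with certainty, in particular for the short *mt-Atp8*.

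No mitochondrial gene passed the adjusted threshold by edgeR or DESeq2, and 1 was higher at an unadjusted p under 0.05 by edgeR (12.5% of all genes). The groups overlapped for all 13, where 7.92% of all genes lay entirely higher and 7.36% entirely lower in ISOGK livers. *mt-Co1* had 34900, 38765, 32717 and 33100 CPM in vehicle and 35311, 33737, 34040 and 36476 in ISOGK livers. The log2 difference was 0.00, with a 95% interval from -0.21 to 0.21. The largest differences were in complex I genes of opposite sign. *mt-Nd3* had 579, 496, 435 and 454 CPM in vehicle and 584, 533, 637 and 613 in ISOGK livers (0.27, interval 0.03 to 0.51, adjusted p = 0.162 by edgeR). *mt-Nd4* had 5902, 5424, 4468 and 4064 in vehicle and 4629, 3762, 4370 and 3567 in ISOGK livers (-0.28, interval -0.58 to 0.01, adjusted p = 0.229 by edgeR). The others were *mt-Nd1* at 0.22, *mt-Atp8* at 0.19, *mt-Nd6* at 0.12, *mt-Co3* at 0.08, *mt-Nd4l* at -0.01, *mt-Atp6* at -0.03, *mt-Nd5* at -0.06, *mt-Co2* at -0.13 and *mt-Nd2* at -0.20.

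**Figure D3:**
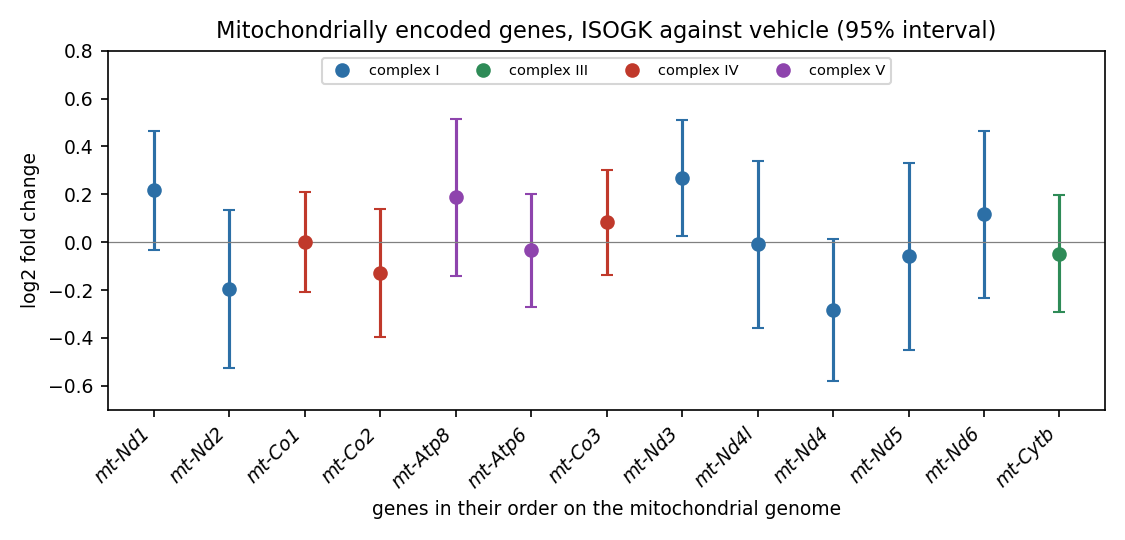
Log2 fold change (ISOGK minus vehicle) of the 13 mitochondrially encoded genes in their order on the mitochondrial genome, with 95% intervals from edgeR (4 mice per group). The interval excludes 0 for *mt-Nd3* alone, from 0.03 to 0.51, and that gene's adjusted p was 0.162.

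Mitochondrially encoded genes took 8.63%, 9.04%, 7.89% and 7.497% of all counts in vehicle and 7.95%, 7.06%, 7.90% and 6.93% in ISOGK livers (8.26% ± 0.696 and 7.46% ± 0.538, SD, n = 4 each). The nuclear members took 0.745% ± 0.0356 and 0.762% ± 0.0466. Mitochondrial counts were thus 12.2, 11.5, 10.9 and 9.84 times the nuclear ones in vehicle and 10.5, 8.69, 11.2 and 8.90 times in ISOGK livers. The groups overlapped in all 3 measures. Shares were not surveyed over all single members. *mt-Co1* took 3.46% to 4.01% of counts in vehicle and 3.22% to 3.45% in ISOGK livers, which did not overlap, whereas its TMM-scaled values did. How many of all genes lack overlap in their shares of counts was not counted, so no background stands beside this. Summed over the genes of a complex, nuclear CPM were 1468 ± 68.8 in vehicle and 1650 ± 188 in ISOGK livers for complex I, 717 ± 37.2 and 713 ± 63.1 for complex II, 845 ± 43.6 and 961 ± 116 for complex III, 967 ± 60.4 and 1140 ± 150 for complex IV, and 3000 ± 200 and 3403 ± 359 for complex V (SD, n = 4 each). The groups overlapped in each sum.

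**Figure D4:**
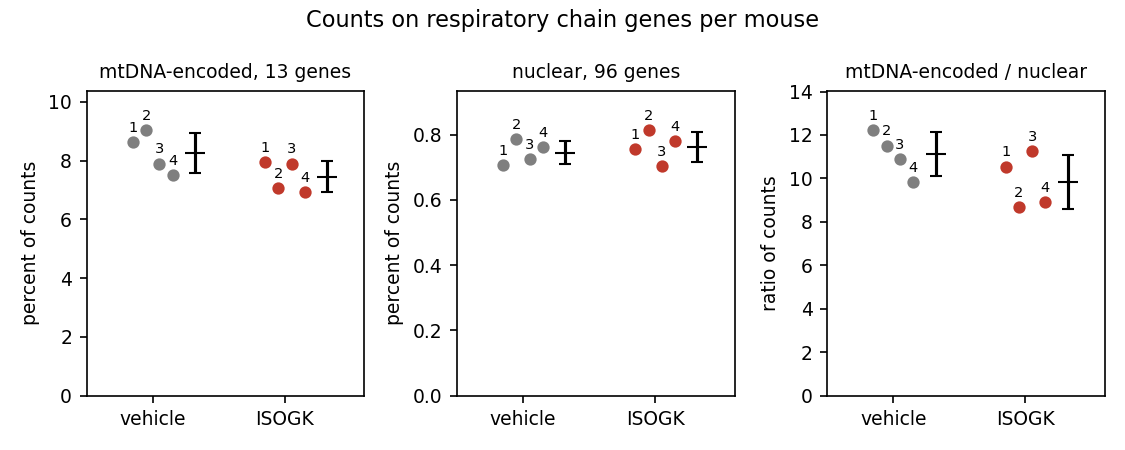
Share of all counts (percent, linear axes) on mitochondrially encoded and on nuclear members and their ratio, in each of the 8 mice, with the mean and SD of each group. The vehicle and ISOGK points overlap in every panel, for example 7.497% to 9.04% against 6.93% to 7.95% for the mitochondrial share.

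Within the nuclear subunits, the difference was smaller in long genes. The catalytic core was taken as 15 genes, the nuclear core subunits of complexes I, II and III with *Atp5a1* and *Atp5b* of complex V. It had a median log2 fold change of 0.12 with 11 above 0. The 63 other subunits tested, mostly short, had 0.24 with 61 above 0. With library size alone the medians were -0.02 and 0.10, against -0.13 for all genes, and with the offset for length and GC content they were 0.08 and 0.07. Over the 77 nuclear subunits with a coding length, the log2 of this length and the log2 fold change were correlated at r = -0.51 (Spearman's rho = -0.43). Genes are not independent replicates and share the 8 libraries, so no p is given. The same values over 12249 genes tested were r = -0.15 and rho = -0.20. Over the 13 mitochondrially encoded genes they were r = -0.55 and rho = -0.54. The median coding length was 784 bases for these 13 genes and 429 for the nuclear subunits. The part of length in the contrast between nuclear and mitochondrial members was not tested. Subunits of at most 300 coding bases had a median of 0.26 against 0.15 for all genes of that class, those of 300 to 450 had 0.23 against 0.13, those of 450 to 600 had 0.29 against 0.11, those of 600 to 900 had 0.18 against 0.06, and those over 900 had 0.11 against -0.03. Nuclear subunits were therefore above other genes of like length in each class, by a smaller margin than over all lengths. Other sets of mostly short genes also lay above 0. The log2 fold change was above 0 for all 77 cytosolic ribosomal protein genes tested (median 0.31) and for 59 of 78 genes of the mitochondrial ribosome (median 0.14). With the offset for length and GC content, the nuclear median was 0.07, which was 0.055 above that of all genes, and *Ndufs4* was the only member called.

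**Figure D5:**
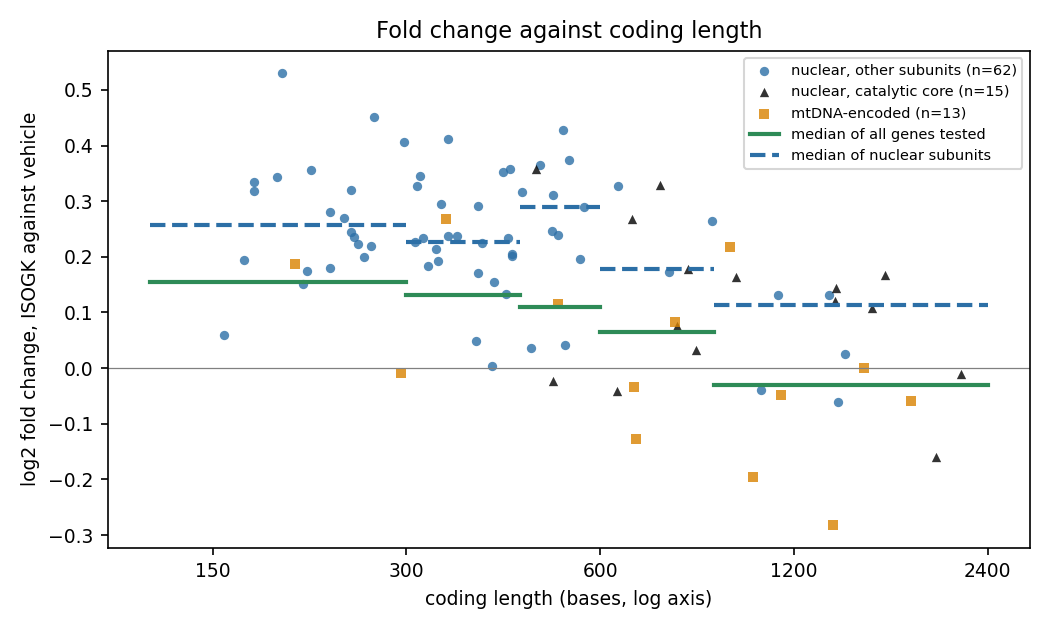
Log2 fold change (ISOGK minus vehicle) against coding length in bases (log axis) for nuclear subunits and mitochondrially encoded genes, with the median of all genes tested (solid line) and of the nuclear subunits (dashed line) in each length class. Subunits of at most 300 bases have a median of 0.26 and those over 900 bases 0.11, where all genes have 0.15 and -0.03.

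Lists of genes that work beside the chain were examined in the same fit. Of 20 electron carrier genes and enzymes feeding ubiquinone, 2 rose and 1 fell, where 4.11% of all genes were called higher and 3.44% lower. *Etfdh*, which passes electrons from fatty acid oxidation to ubiquinone, had 243, 204, 206 and 218 CPM in vehicle and 349, 372, 381 and 357 in ISOGK livers (log2 fold change 0.74, SE 0.09, adjusted p = 0.00117 by edgeR). *Cycs*, cytochrome c, had 96.8, 99.96, 81.0 and 75.7 against 116, 125, 112 and 135 (0.47, SE 0.11, adjusted p = 0.0267 by edgeR). *Sqor*, which feeds electrons from sulfide, had 133, 172, 135 and 149 against 98.7, 103, 74.7 and 96.6 (-0.66, SE 0.12, adjusted p = 0.00785 by edgeR). The groups did not overlap for these 3 genes. Of 17 tricarboxylic acid cycle genes, 3 rose and 0 fell (4.11% and 3.44% of all genes): the oxoglutarate dehydrogenase components *Dlst* (0.63, adjusted p = 0.00427 by edgeR) and *Ogdh* (0.34, adjusted p = 0.0432), and the fumarase *Fh1* (0.69, adjusted p = 0.0411).

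Of 49 assembly factors, the Ndufaf members included, 1 rose (4.11% of all genes), the copper-handling complex IV factor *Sco2*, from 16.4 to 20.7 CPM in vehicle to 25.4 to 37.4 in ISOGK livers (0.74, SE 0.13, adjusted p = 0.00692 by edgeR). Of 30 genes that maintain, transcribe or process mitochondrial DNA and RNA, 2 rose and 1 fell (4.11% and 3.44% of all genes). *Hsd17b10*, a dehydrogenase that is also part of mitochondrial RNase P, had 95.1 to 112 CPM in vehicle and 157 to 242 in ISOGK livers (1.05, SE 0.13, adjusted p = 0.00121 by edgeR). The rRNA methyltransferase *Tfb1m* rose (0.54, adjusted p = 0.0305 by edgeR) and the RNA-binding *Fastkd1* fell (-0.55, adjusted p = 0.0297). *Tfam*, the packaging and transcription factor of mitochondrial DNA, differed by 0.13 (adjusted p = 0.474 by edgeR). Of 19 regulators tested, 1 rose and 0 fell (4.11% and 3.44% of all genes). *Esrrg*, an orphan nuclear receptor, had 0.633 to 0.983 CPM in vehicle and 1.77 to 3.11 in ISOGK livers (1.59, SE 0.26, adjusted p = 0.00436 by edgeR). The coactivator *Ppargc1a* differed by 0.35 (SE 0.33), *Esrra* by 0.13, *Nrf1* by 0.07 and *Gabpa* by -0.26, and none passed the test. Of 8 carriers and uncouplers tested 0 passed by edgeR, and *Ucp2* differed by 0.03. At an unadjusted p under 0.05 by edgeR, 2 of the 8 were higher, where 12.5% of all genes were.

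Hepatocyte markers, 12 of 12 measured, summed to 169288 to 184359 CPM in vehicle and 158260 to 216560 in ISOGK livers. Kupffer cell and macrophage markers summed to 1065 to 1370 and 851 to 1101, with 7 of 8 below 0. Of these 8, 1 was called lower (3.44% of all genes), *Cd68* (-0.57, adjusted p = 0.009 by edgeR). All 5 cholangiocyte markers tested were above 0, with 1 called higher (4.11% of all genes), *Sox9* (0.51, adjusted p = 0.0494 by edgeR). *Krt7* was at or under 2.09 CPM. Of 7 endothelial markers, 5 were below 0, with 0 called by edgeR. For 1 endothelial marker the ISOGK livers lay entirely lower, where 7.36% of all genes did. All 7 stellate cell markers were below 0 with 0 called by edgeR. At an unadjusted p under 0.05, 1 of the 7 was lower, where 11.6% of all genes were. Stellate cell markers summed to 64.9 CPM in ISOGK 4, 118 to 150 in the other ISOGK livers and 108 to 164 in vehicle livers. Red cell markers summed to 69.3 CPM in ISOGK 3, 151 to 153 in the other ISOGK livers and 102 to 130 in vehicle livers. Cholangiocyte markers summed to 28.3 CPM in ISOGK 4, 46.8 to 69.4 in the other ISOGK livers and 27.8 to 35.0 in vehicle livers. The highest hepatocyte sum, 216560 CPM, was that of ISOGK 4. ISOGK 4 and ISOGK 3 were also the livers with the highest and the lowest nuclear median among the ISOGK mice. Different lists stood out in these mice, and a link to the nuclear median was not tested. In bulk liver, fewer cells of a type and less RNA per cell cannot be told apart, and the part of cell composition in the differences above was not tested. Of the brown fat list, 3 of 7 genes were tested, all 3 above 0, with 1 called higher (4.11% of all genes). The called gene was *Cpt1b*, the muscle and brown fat form of carnitine palmitoyltransferase. It had at most 0.938 CPM in vehicle and 3.17 to 6.84 in ISOGK livers. Its log2 fold change was 3.40 (SE 0.55, adjusted p = 0.00727 by edgeR), and the groups did not overlap. Of all genes, 7.92% lay entirely higher in ISOGK livers. *Elovl3* (0.99, adjusted p = 0.0635 by edgeR) and *Ppargc1a* (0.35, adjusted p = 0.562) were not called, and their groups overlapped. The source of these differences was not tested.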

How the data were processed

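Liver RNA of 8 mice, 1 library each, was sequenced by the authors as single-end Illumina reads, aligned with HISAT2 to mm10 and deposited as raw counts per gene computed with StringTie. The annotation release and strand setting are not given in the sources used here. The columns named DMSO were taken as the vehicle samples. The labels name no pooling, so each library was taken as 1 mouse. The p-values judge the difference between the groups against the spread between libraries within them.

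Members and gene lists were chosen with earlier results of these data known. Counts were scaled by TMM, filtered with filterByExpr (minimum count 10, total 15), which left 12307 of 16540 genes, and tested with the robust quasi-likelihood test of edgeR 4.0.16 (R 4.3.3), with Benjamini-Hochberg adjustment. DESeq2 1.42.0 was an alternative. Both were tested on simulated data. CPM are TMM-scaled, and RPKM divide these by transcript length. Genes named were all mitochondrial members, the 3 smallest p-values per complex among nuclear subunits and among other members, isoform pairs, complex II, up to 3 called genes per related list and a few fixed genes. *Atp5j*, *Cox5a*, *Cpt1b*, *Elovl3*, *Krt7*, *Cd68*, *Sox9*, *Atp5b* and *Atp5a1* were named after their values were seen.

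GENCODE M21 (GRCm38) gave lengths and positions, with 16211 symbols matched directly, 224 by synonym and 105 unmatched. Promoter windows were from RefSeq. blastn 2.17.0 found a transcript of another gene at 95% identity or more over at least 50% of its length for 13 of 95 nuclear members searched, among them *Atp5h*, *Uqcrb*, *Cox7c*, *Atp5g1* and *Atp5g2*, and for 8 mitochondrial members. Reads of these could be shared with copies, so their counts are less certain. None was found for *Ndufs4*, *Uqcrh* or *Uqcr10*.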

Additional observations from a re-analysis of the deposited data

Results flagged for a closer look

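Of 88 groups of 4 mice examined, 2 held a mouse far from the other 3 by Dixon's test, where chance alone would give about 4.4. *Cox6b1*, the ubiquitous small subunit of complex IV, had 71.7 CPM in vehicle 2, with 59.6 to 60.3 in the other vehicle mice. *mt-Atp6*, a mitochondrially encoded subunit of complex V, had 3847 CPM in ISOGK 2, with 4323 to 4409 in the other ISOGK mice.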

How the results depend on the processing

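The 3 calls held with the size factors of DESeq2 in edgeR, with scaling that left out the mitochondrial genes, with both other filters and with the replicate block. Members called higher were 0 with library size alone (where 1 was called lower), 7 with the DESeq2 Wald test, 1 with the length and GC offset (chosen after seeing the data), and 0 to 18 when 1 mouse was left out. The nuclear median of 0.21 was 0.077 with library size alone and 0.070 with the offset, and 0.14 to 0.25 leaving out 1 mouse. Same-numbered mice had correlations of deviations between -0.014 and 0.085 and share only a number, and the replicate block gave 3 calls, a nuclear median of 0.21 and a mitochondrial median of -0.03. The mitochondrial share differed by -1.06 to -0.54 percentage points leaving out 1 mouse. Leaving out mitochondrial rRNA and tRNA genes could give no other value, as none are in the table.

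Genes near 0 changed sign without a call. With library size alone *Atp5g1* was at -0.13, *Sdhb* at -0.10, *mt-Co1* at -0.13, *mt-Co3* at -0.049 and *mt-Nd6* at -0.0018. With the offset *Atp5g1* was at -0.14, *Cox8a* at -0.0023, *Sdhb* at -0.067, *mt-Atp8* at -0.023 and *mt-Nd5* at 0.062. *mt-Co1* was at -0.0020 with DESeq2 size factors, -0.0048 with the Wald test and -0.0056 with genes of at least 1 count, where *Atp5g1* was at -0.0034, and *Atp5g1* was at -0.0021 with the Wald test and -0.00081 with the block. Leaving out 1 mouse gave -0.054 to 0.056 for *Atp5g1*, -0.069 to 0.16 for *Sdhb*, -0.084 to 0.041 for *Sdhc*, -0.090 to 0.027 for *mt-Atp6*, -0.029 to 0.055 for *mt-Co1*, -0.11 to 0.024 for *mt-Cytb*, -0.19 to 0.10 for *mt-Nd4l*, -0.24 to 0.048 for *mt-Nd5* and -0.027 to 0.21 for *mt-Nd6*. The cause was not tested.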
